A study of Mus musculus with 6 samples.

Results

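The genes described here make microRNAs or hold one microRNA family, let-7, in check: Drosha, Dgcr8, Xpo5, Dicer1, Tarbp2, Ago1, Ago2, Lin28a, Lin28b and Trim71. They were chosen by name, with older names and gene IDs followed, and with earlier results of these data known. Of the 10 genes, 9 had at least 1 named probe set, with 19 probe sets in all, in a table of 33142 probe sets that names 15356 genes. No probe set was named Lin28b. For each gene, the probe set with the highest mean level stood for the gene, and the others are given beside it.

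Gene expression was compared between undifferentiated WT mESCs and Alkbh1-/- mESCs, which lack the AlkB homolog ALKBH1, on 3 Affymetrix arrays per genotype. Cells of both genotypes were C57BL/6 lines derived from littermate blastocysts of heterozygous matings. All were sampled at passage 8 and day 0 of differentiation, untreated, from cultures kept with LIF, the cytokine that holds mESCs in self-renewal, on irradiated fibroblast feeders. The labels number the arrays within a genotype and do not say whether they came from separate cultures or lines, and the values analysed were means, so single arrays are not shown and no value has an SD, an interval or a test.

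MicroRNAs are short RNAs that guide an Argonaute protein to matching messenger RNAs and lower their output. A primary transcript is cut in the nucleus by DROSHA with its partner DGCR8, the hairpin that results is carried to the cytoplasm by exportin 5, the product of Xpo5, and DICER1 with TARBP2 trims it to the mature form that AGO1 or AGO2 holds. In mESCs the miR-290 family is abundant and eases cell cycle entry, whereas let-7 is kept scarce because LIN28A binds its precursors and recruits enzymes that tail them with uridines. The let-7 family rises as cells differentiate, and Trim71, an RNA-binding ubiquitin ligase of early embryos, is among its classical targets.

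The seed, bases 2 to 8 of a microRNA, sets which messages it recognises. Mature sequences of both families are shown, from RefSeq on GRCm38.p6, with the seed in capitals. The let-7 entries share 1 seed, and the miR-290 family has more than 1, of which that of miR-294 is shown. MicroRNAs themselves were not measured in these samples.
let-7a-5p, chr13:48538239-48538260, minus strand: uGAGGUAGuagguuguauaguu
let-7d-5p, chr13:48536078-48536099, minus strand: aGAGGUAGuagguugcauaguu
let-7g-5p, chr9:106178846-106178867, plus strand: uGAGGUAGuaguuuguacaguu
miR-291a-3p, chr7:3218968-3218989, plus strand: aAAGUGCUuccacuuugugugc
miR-294-3p, chr7:3220691-3220712, plus strand: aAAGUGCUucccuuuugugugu
miR-302b-3p, chr3:127545275-127545297, plus strand: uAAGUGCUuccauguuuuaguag
The seed GAGGUAG was found in 13 of the 1738 mature entries of the table, in 11 different sequences. The seed AAGUGCU was found in 5 entries, 3 of the miR-290 family and 2 of the miR-302 family.

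LIN28A contacts the stretch between both arms of a let-7 precursor, where a GGAG motif is one of its known contacts. The stretches of 4 precursors are shown, from RefSeq on GRCm38.p6, to set those that hold the motif, in capitals, beside Mirlet7b, which does not. The positions are those of the whole hairpins.
Mirlet7g, chr9:106178840-106178927, plus strand: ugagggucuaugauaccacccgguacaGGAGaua
Mirlet7a-1, chr13:48538179-48538272, minus strand: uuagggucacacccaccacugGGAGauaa
Mirlet7d, chr13:48536012-48536114, minus strand: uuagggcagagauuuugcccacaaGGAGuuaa
Mirlet7b, chr15:85707319-85707403, plus strand: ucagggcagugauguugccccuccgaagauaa
Among the 11 hairpins with a let-7 seed and both arms in the table, 8 held GGAG between the arms on the RNA strand. Of the 633 other hairpins with both arms, 44 (6.95%) did, with lengths not matched. A match is a run of letters and was not tested for binding.

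Alkbh1, the deleted gene, was low where the labels place the deletion. The geometric mean intensity of probe set 1434660_at was 761 in WT and 25.7 in Alkbh1-/- mESCs, 29.6-fold lower. The second probe set, 1438681_at, stood at 120.0 and 34.6, 3.47-fold lower. Genotype means were listed only for probe sets that passed a filter and a nominal p threshold set for the authors, 12.9% of the table (4261 probe sets), and the smallest listed difference was 1.29-fold. For a probe set without genotype means, only a mean level is given here. The authors' own differences were not used, so its absence from the list does not show that it was the same in both genotypes.

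The genotypes also differed in genes of the sex chromosomes, and the labels give no sex for the lines. Of 10 named Y-linked genes, 5 had genotype means at the brightest probe set, all lower in Alkbh1-/- mESCs, and Eif2s3y stood at 751 in WT and 14.9 in Alkbh1-/- mESCs. Of 524 X-linked genes, 281 had genotype means there, 260 of them higher in Alkbh1-/- mESCs, with a median log2 difference of 0.75. On all other chromosomes together 13.4% of genes had genotype means and 40.9% of these were higher, with a median of -0.50. No listed difference is smaller than 1.29-fold, so this last median falls on the side with more entries and does not measure a common shift. None of the 10 genes described here, nor of the target and marker lists, lies on X or Y. The effect of the deletion and that of any difference in sex chromosomes between the lines cannot be told apart in any value given below.

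Among the 19 probe sets of the microRNA processing and Lin28 genes, 2 (10.5%) had genotype means. They belonged to Dicer1 and Lin28a, and both means were lower in Alkbh1-/- mESCs. The means were placed by level, because values and identifiers of the list were out of step, and by the printed identifier both differences turn positive (log2 0.61 for Dicer1 and 0.58 for Lin28a). Past a linear fold of 1.5 there was 1, that of Dicer1. Of all listed probe sets, 63.2% were past that fold in either direction and 30.3% were past it and lower in Alkbh1-/- mESCs. A single probe set cannot be read against these shares.

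Drosha, the nuclear nuclease, and Dgcr8, its RNA-binding partner, had no genotype means at any of their 5 probe sets. The mean log2 level over all arrays was 11.68 at the brightest Drosha probe set (1438505_s_at) and 10.16 at the other (1428656_at). For Dgcr8 it was 8.95 (1455311_at), 8.78 (1435439_at) and 5.80 (1422981_at). The last of these lies below 6.31, the median of all probe sets, and the rest lie above the upper quartile of 8.38. Brightness reflects the probes as well as the transcript, so these levels do not rank the genes.

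Xpo5, which exports precursor hairpins, and Tarbp2, the double-stranded RNA-binding partner of DICER1, had no genotype means at any probe set. Xpo5 had mean log2 levels of 9.06 (1428560_at) and 8.99 (1451468_s_at). Tarbp2 had levels of 9.43 (1423616_at) and 8.78 (1438952_x_at). All 4 probe sets lay above the upper quartile of the table.

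Dicer1, which makes the final cut, gave different information at its probe sets. The brightest, 1427941_at, had a mean log2 level of 9.37 and no genotype means. At the dimmer 1460571_at, with a mean log2 level of 7.56, the geometric mean intensity was 232 in WT and 153 in Alkbh1-/- mESCs. On the log2 scale these means were 7.86 and 7.26, a difference of -0.60, or 1.51-fold lower in Alkbh1-/- mESCs. This lies just past the 1.5-fold line and rests on the probe set that does not stand for the gene. In the list as a whole, 1257 probe sets (29.5%) had a difference as low or lower.

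Ago1 and Ago2 encode the Argonautes that carry the mature microRNA, and AGO2 can also cut its target. Ago1 was measured by 1 probe set, 1434331_at, at a mean log2 level of 9.24. For Ago2 the levels were 10.24 (1455389_s_at), 10.23 (1426366_at) and 8.92 (1435636_at). None of the 4 had genotype means.

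Lin28a was the only one of the genes whose brightest probe set had genotype means. At 1437752_at, with a mean log2 level of 10.49, the geometric mean intensity was 1749 in WT and 1185 in Alkbh1-/- mESCs. The log2 means were 10.77 and 10.21, a difference of -0.56, or 1.48-fold lower in Alkbh1-/- mESCs, short of the 1.5-fold line. Differences as low or lower were listed for 1377 probe sets (32.3%). The other Lin28a probe set, 1421749_at, had a mean log2 level of 6.05, below the median of the table, and no genotype means. Trim71 was bright at both of its probe sets, with mean log2 levels of 11.31 (1453599_at) and 10.54 (1456673_at), and neither had genotype means.

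**Figure D1:**
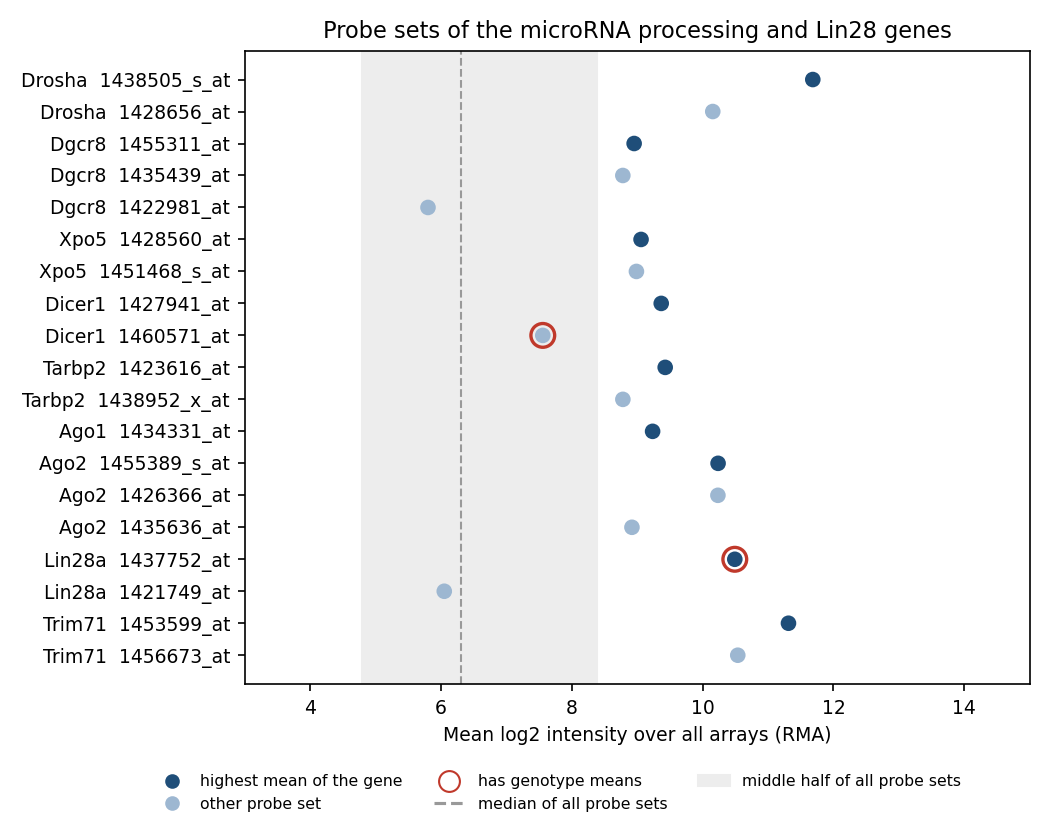
Mean log2 intensity over all 6 arrays (horizontal axis) of the 19 probe sets of 9 genes (vertical axis); dark points mark the highest probe set of a gene, rings those with genotype means, the dashed line the median of all probe sets and the grey band their interquartile range. All 9 dark points lie to the right of the band, and only Dicer1 1460571_at and Lin28a 1437752_at are ringed.

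**Figure D2:**
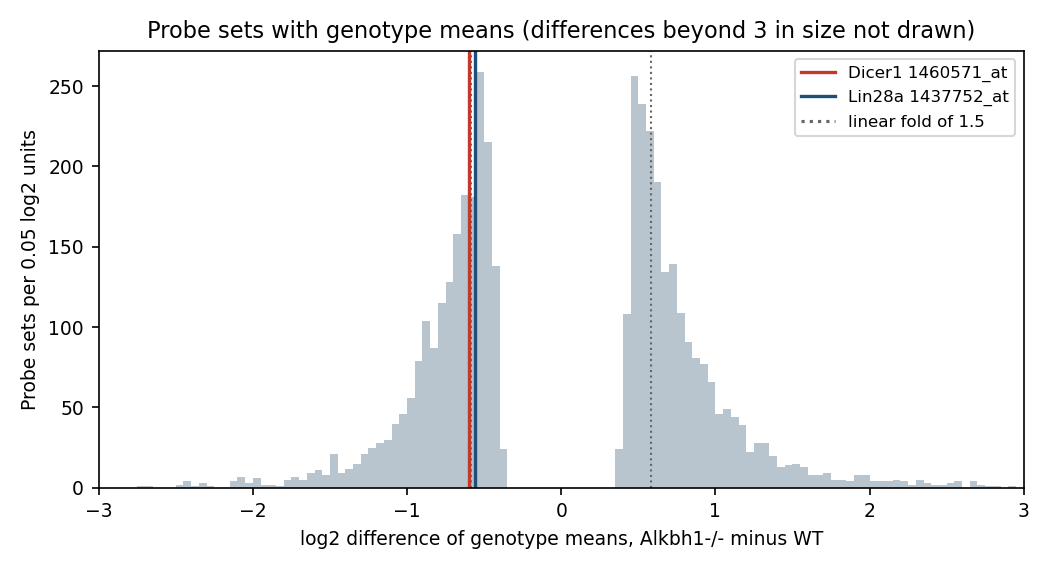
Number of listed probe sets (vertical axis, bins of 0.05) by log2 difference of the genotype means, Alkbh1-/- minus WT (horizontal axis); dotted lines mark a linear fold of 1.5, and 32 probe sets beyond 3 in size are not drawn. The Dicer1 line at -0.60 and the Lin28a line at -0.56 stand on either side of the fold line, within the body of listed probe sets, and the gap around 0 holds no listed probe set.

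Of 24 genes that act with the core machinery, all had a probe set (70 in all), and 2 had genotype means at the brightest one, both lower in Alkbh1-/- mESCs and neither past 1.5-fold. Both were named after their values were seen: Prkra, a further partner of DICER1, whose mean intensity was 210.1 in WT and 146 in Alkbh1-/- mESCs (log2 difference -0.53), and Gemin4, found in complexes with Argonautes, at 722 and 515 (-0.49). Tut4 and Tut7, the uridylyl transferases that LIN28A recruits, had no genotype means at their brightest probe sets. Over the listed probe sets of these genes 2 were higher and 2 lower. Those that were higher are dimmer ones, named for the same reason. A Tnrc6c probe set, 1440997_at, of a gene whose protein links Argonautes to message decay, had a mean intensity of 122 in WT and 189 in Alkbh1-/- mESCs, a log2 difference of 0.64. A Tut7 probe set, 1441986_at, had a mean intensity of 50.1 in WT and 93.4 in Alkbh1-/- mESCs, a log2 difference of 0.90. Over all named genes, 2276 (14.8%) had genotype means at the brightest probe set and their median log2 difference was -0.44. Over all listed probe sets the median was 0.42. No listed difference is smaller than 1.29-fold, so these medians fall on the side with more entries. They do not measure a common shift.

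Of 15 genes whose messages let-7 is known to repress, 3 had genotype means at the brightest probe set, beside 14.8% of all named genes. All 3 were past 1.5-fold, as were 65.1% of all genes with genotype means there, so neither count sets the list apart. In Alkbh1-/- mESCs 1 was higher and 2 were lower, and their median log2 difference was -0.72. Igf2bp2, an RNA-binding protein that steers growth factor messages, stood at 432 in WT and 1127 in Alkbh1-/- mESCs (1439764_s_at), 2.61-fold higher, and its second probe set gave a log2 difference of 1.30 against 1.38 at the first. Mycn, a MYC family transcription factor of proliferating embryonic cells, stood at 3844 and 2145 (1417155_at), 1.79-fold lower, with a log2 difference of -0.91 at its other listed probe set. Myc itself stood at 532 and 324, 1.64-fold lower. The remaining 12, among them Hmga2 and Igf2bp1, had no genotype means at the brightest probe set. Trim71, itself a let-7 target, belongs with these 12 in having no difference given here.

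For messages that the miR-290 family represses, 7 of 8 genes had a probe set and 2 had genotype means at the brightest one, too few to read against the 14.8% of all named genes. Over their listed probe sets 3 were higher and 2 lower in Alkbh1-/- mESCs. Cdkn1a, the cell cycle inhibitor p21, stood at 1441 in WT and 889 in Alkbh1-/- mESCs (1424638_at), 1.62-fold lower, and its second probe set gave -0.67 on the log2 scale. Rbl2, a pocket protein of the retinoblastoma family named after its value was seen, stood at 53.6 and 74.9, a log2 difference of 0.48, with 0.47 at its other listed probe set. A dim probe set of Lats2, a kinase of the Hippo pathway also named after its value was seen, stood at 34.7 and 49.0, a log2 difference of 0.50. The median of Cdkn1a and Rbl2 was -0.11, the midpoint of 2 opposite differences, so it describes neither gene.

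**Figure D3:**
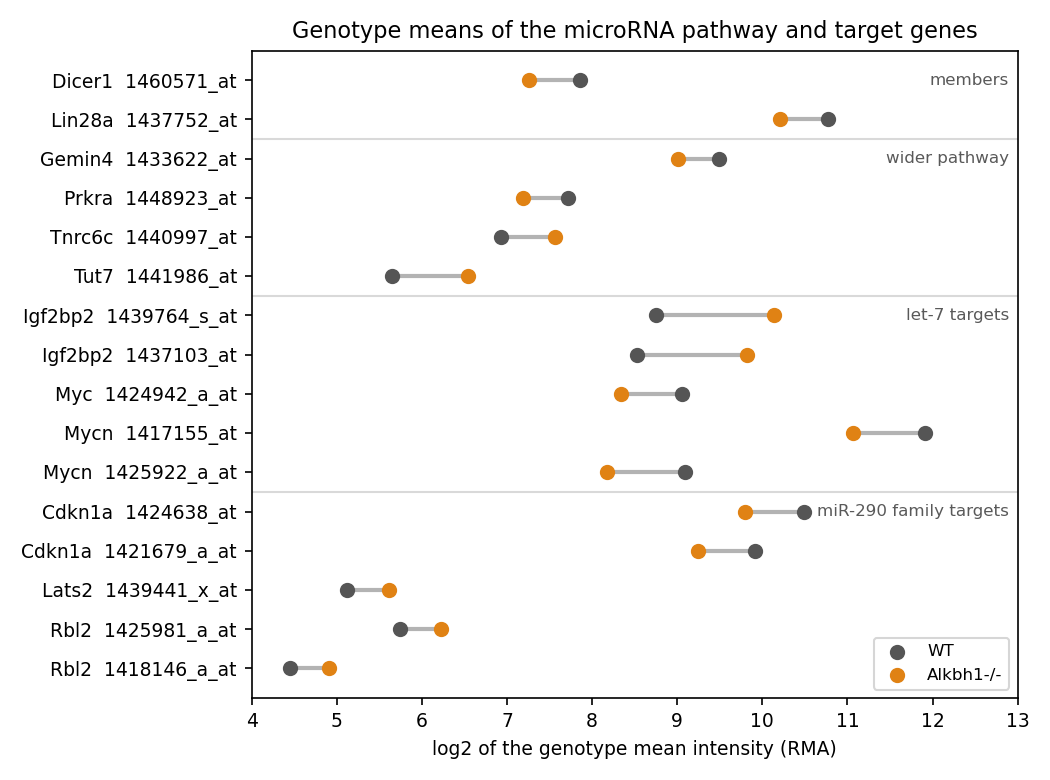
Log2 of the genotype mean intensity (horizontal axis) of every listed probe set of the 10 genes, the wider pathway and both target lists (vertical axis); grey points are WT, orange points Alkbh1-/-, and a line joins the pair. The Dicer1 and Lin28a pairs are among the shorter ones, the Igf2bp2 pairs are the longest with orange to the right, and the Mycn and Cdkn1a pairs have orange to the left; no error bars are drawn because the means carry none.

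Markers of the cells in the cultures differed as well, beside the lower Lin28a and Dicer1 means. All 7 embryonic stem cell markers had a probe set, with brightest mean log2 levels from 10.05 to 14.49. Of these, 4 had genotype means there, 3 higher and 1 lower in Alkbh1-/- mESCs, too few to read against the 14.8% of all named genes. Nanog, a core pluripotency factor, stood at 3852 in WT and 8267 in Alkbh1-/- mESCs, 2.15-fold higher. Esrrb (log2 difference 0.55) and Zfp42 (0.41) were higher and Utf1 lower (-0.49), named after their values were seen, whereas Pou5f1, Sox2 and Dppa5a had no genotype means there. The genotype means of the 7 listed probe sets of this list summed to 8915 in WT and 14334 in Alkbh1-/- mESCs, and without Nanog to 5063 and 6067. The 7 probe sets belong to 4 genes, and Esrrb and Utf1 each enter these sums with more than 1. Because Pou5f1, Sox2 and Dppa5a are outside these sums, the sums do not measure the signal of the whole list.

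Among 10 fibroblast markers, which could come from the feeders, 4 had genotype means at the brightest probe set, all lower in Alkbh1-/- mESCs, and 3 were past 1.5-fold. Over all named genes 14.8% had genotype means there, and of these 65.1% were past 1.5-fold and 52.8% were lower. So few markers cannot be read against these shares. The log2 difference was -1.06 for Col1a1, -0.89 for Fbn1 and -0.88 for Col3a1, all genes of extracellular matrix. Of the 18 probe sets of these markers, 8 (44.4%) were listed, beside 12.9% of all probe sets. These 8 came from 6 genes and all were lower in Alkbh1-/- mESCs. Their means summed to 4656 in WT and 2431 in Alkbh1-/- mESCs. These sums leave out probe sets that were not listed, such as the brightest of Col1a2 (mean log2 level 11.82) and Acta2 (11.18). Dimmer probe sets of Col1a2 (1423110_at, log2 difference -1.06) and Col5a1 (1434479_at, -0.83) were listed, named after their values were seen. Listing itself required passing a p threshold, so the sums do not measure the signal of the whole marker list. The lowest brightest level of the list was 6.21 and the highest 11.82, beside a median of 6.31 over all probe sets. Whether fibroblast messages were present was not tested, because brightness reflects the probes as well as the transcript. In such bulk cultures, fewer cells of a type and less RNA per cell cannot be told apart, and the part of either marker list in the Lin28a, Dicer1 and target gene values was not tested.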

How the data were processed

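Total RNA was hybridised to Affymetrix mouse whole-genome arrays, and the authors normalized all arrays together by robust multiarray averaging (RMA). The authors deposited a table whose mean log2 level over 6 arrays was used, and a list, made for them by a service company, of the geometric mean intensity (linear scale) per genotype. Both files also hold the authors' comparison (differences, folds, test statistics and p-values), which was not used. In the list, 1 class carries a name that the accompanying description corrects to WT.

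Values of the list stood beside other identifiers: of the 4261 entries that matched a level, 8 carried the identifier of that probe set. Each of the 4326 entries was therefore joined to the probe set whose mean level equals the mean of its log2 genotype means within 1e-06, where such a probe set was found. On simulated tables of the same size, where every entry was built from a level in the table, the join placed 4325 of 4326 entries rightly. This checks the matching step and not whether each real entry has a matching level. In the real tables, 29 entries had more than 1 probe set within the tolerance and went to the nearest. The entries of Dicer1 and Lin28a had 1 each. The difference is log2 of the Alkbh1-/- mean over the WT mean, read against a linear fold of 1.5. With no values of single arrays, the planned limma fit was not run, and the number of arrays limits the precision.

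Probe sets were named from the deposited gene IDs and symbols through RefSeq genes (GRCm38.p6), which also gave their chromosomes. The look at X- and Y-linked genes was added after their values were seen. Of the 19 probe sets of the pathway genes, 13 were named by gene ID and 6 by an older symbol. Probe sets ending in _s_at or _x_at can share sequence with other transcripts. The text names Alkbh1, the 10 genes with every probe set, and genes of the other lists past the fold at their brightest probe set, and a few others where the text says so. The genes and lists were chosen with earlier results of these data known. Some members of the lists and some sequences are not reported here. Python 3.11.15 with pandas 2.3.3, NumPy 2.4.6 and matplotlib 3.10.9 were used.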

Additional observations from a re-analysis of the deposited data

How the results depend on the processing

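The direction of both pathway values differs between the joins, and only the join by level matches the mean levels of these probe sets within 1e-06. By printed identifier Lin28a 1437752_at would have means of 17.3 in WT and 25.9 in Alkbh1-/- mESCs, at a mean log2 level of 10.49. The identifiers of 4258 of the 4261 probe sets joined by level were printed somewhere in the list. Taken by the identifier printed beside them, the log2 difference of Dicer1 1460571_at was 0.61 and that of Lin28a 1437752_at was 0.58, opposite to the values joined by level. By printed identifier the Alkbh1 probe sets gave -1.22 and 0.60, against -4.89 and -1.79 joined by level. Pathway probe sets past the fold numbered 1 at 1.5-fold, 0 at 2-fold and 2 at 1.2-fold, where all listed probe sets numbered 2695, 799 and 4261. The 1.2-fold counts take in every listed probe set, because the smallest listed difference was 1.29-fold. Averaging all listed probe sets of a gene could not move the pathway values of -0.60 and -0.56, because Dicer1 and Lin28a had 1 listed probe set each. Over all named genes it gave 1699 genes past the fold, against 1481 at the brightest probe set. The first count also takes in genes listed only at a dimmer probe set, so the counts cover different sets of genes. No paired analysis was possible because the values are means over arrays. For the same reason, leaving out each array in turn was not run. A further 65 entries of the list matched no level and are not placed. The values used carry no error, so differences as small as those of Lin28a and Dicer1 were not set against the spread between arrays here. Both had passed the nominal p threshold for listing, and the authors' test statistics and p-values were not used.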
